A study of Mus musculus with 18 samples.

Results

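The 44 miRNA precursors described here belong to the imprinted Dlk1-Dio3 locus on mouse chromosome 12. They were taken by name from a table of 1234 small non-coding RNAs, of which 1150 are miRNA precursors, and all 44 have a row in it. Liver small RNA was sequenced from male C57BL/6 mice, 4 fed a high-cholesterol diet (HCD) and 5 fed a low-cholesterol diet (LCD), which started at an age of 8 weeks. Each mouse gave a PANDORA-seq and a traditional-seq library, so that 9 mice gave 18 libraries and 4 groups, HCD PANDORA-seq, LCD PANDORA-seq, HCD traditional-seq and LCD traditional-seq. All of the RNA was cut from a gel at 15 to 50 nucleotides. For PANDORA-seq it was treated with the kinase T4PNK, which repairs RNA ends so that adapters can be joined, and with AlkB, an enzyme that takes off RNA methylations at which reverse transcriptase would halt. For traditional-seq a share of the same eluted RNA was used untreated. The sources differ on the length of feeding, which is 4 weeks by the design text, 9 weeks by the growth protocol and 8 weeks by a time label. Levels are given in RPM, reads of a precursor per 1000000 reads of its library, and an empty cell of the table was read as 0.

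The Dlk1-Dio3 locus is imprinted: the protein-coding genes Dlk1, Rtl1 and Dio3 are expressed from the paternal chromosome, and the long non-coding RNAs Meg3, Rian and Mirg, an antisense transcript of Rtl1 and the miRNAs from the maternal one. The miRNAs are best known from placenta, embryo and brain, and the levels of many of them fall in other tissues after birth. Some of them, such as those opposite Rtl1, are fully complementary to the Rtl1 transcript and cleave it.

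Read totals, inferred from the RPM worth of 1 read, lay between 2511895 and 10477638 in PANDORA-seq and between 1934330 and 25488322 in traditional-seq. A precursor without a value could therefore have had up to 0.286 to 1.19 RPM in a PANDORA-seq library and up to 0.118 to 1.55 RPM in a traditional-seq library, the worth of 3 reads, which covers counting error only. miRNAs took 2.04% to 15.8% of the listed RPM in PANDORA-seq and 62% to 82% in traditional-seq. Because of this gap, levels are given below both in RPM and per 1000000 miRNA reads. All 5 hepatocyte markers (mir-122, mir-192, both mir-194 copies and mir-148a) were present in every library, and mir-122, the main miRNA of hepatocytes, alone held 15.3% to 60% of the miRNA reads in PANDORA-seq and 26.3% to 64.4% in traditional-seq. In whole liver, fewer cells of a type and less RNA per cell cannot be told apart.

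Mature products of the most abundant precursors, and of pairs with near-identical letters, are shown first, with the seed (bases 2 to 8) in capitals. The pairs bear on how the levels can be read. The table gives 1 value per precursor, so its 5p and 3p products are not told apart.
mmu-miR-127-3p: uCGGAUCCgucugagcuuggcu
mmu-miR-434-3p: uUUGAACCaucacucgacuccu
mmu-miR-541-5p: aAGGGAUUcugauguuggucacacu
mmu-miR-379-5p: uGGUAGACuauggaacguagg
mmu-miR-411-5p: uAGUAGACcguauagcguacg
mmu-miR-379-3p: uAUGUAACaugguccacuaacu
mmu-miR-411-3p: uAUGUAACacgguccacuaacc
mmu-miR-381-3p: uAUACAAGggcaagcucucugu
mmu-miR-300-3p: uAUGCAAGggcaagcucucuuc
mmu-miR-376c-5p: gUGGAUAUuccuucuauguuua
mmu-miR-376b-5p: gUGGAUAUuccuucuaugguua

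The sequences are those of RefSeq on GRCm38.p6, which had 84 mature products of 19 to 26 bases for the 44 precursors. For mmu-mir-376c, mmu-mir-487b, mmu-mir-539 and mmu-mir-485 only 1 product was listed, so the seeds of their other arms are not counted. The 84 products carry 81 different seeds. Among them 3 seeds were shared, each by 2 products: AUGUAAC by miR-379-3p and miR-411-3p, UGGAUAU by miR-376c-5p and miR-376b-5p, and GGUUGUC by miR-494-5p and miR-410-5p. With positions counted from 1 at the 5′ end, miR-379-3p and miR-411-3p differ only by U10C and U22C, and miR-376c-5p and miR-376b-5p only by U19G. miR-381-3p and miR-300-3p differ by A4G, G21U and U22C, the first of which lies in the seed. The 5p products of mmu-mir-379 and mmu-mir-411 differ at 7 positions, among them G2A in the seed.

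In the same build, 43 of the 44 hairpins had a position, all on the plus strand, from mmu-mir-770 at chr12:109563692-109563785 to mmu-mir-410 at chr12:109743715-109743795, a span of 180104 bp. The hairpin of mmu-mir-666 was not placed. By the GENCODE M21 annotation, mmu-mir-770 lies in an exon of Meg3 and mmu-mir-341 and mmu-mir-370 in introns of Rian. Another 5 hairpins, mmu-mir-127 (chr12:109592846-109592915) and mmu-mir-434 (chr12:109594506-109594599) among them, lie opposite an exon of Rtl1. Of the 11 hairpins inside Mirg, 4 lie in exons and 7 in introns, and mmu-mir-541 (chr12:109742409-109742498) is one of the 7. The other 24, mmu-mir-379 (chr12:109709060-109709125) and mmu-mir-411 (chr12:109710175-109710256) among them, lie in no other annotated gene.

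Most members were detected in at least 1 library, as were most miRNA precursors. In traditional-seq, 41 of the 44 members (93.2%) had a value above 0 in at least 1 of 9 libraries, against 1016 of all 1150 miRNA precursors (88.3%), and in PANDORA-seq 30 members (68.2%) had one, against 872 precursors (75.8%). Detection in all 9 libraries of a method was rarer, with 1 member (2.27%) in PANDORA-seq, mmu-mir-127, and 10 members (22.7%) in traditional-seq, against 13.9% and 27.2% of all miRNA precursors. A library of PANDORA-seq held 3 to 19 members and a library of traditional-seq 14 to 34. The most members, 34, were found in the deepest library, that of HCD mouse 15 in traditional-seq, and the fewest there, 14, in the shallowest, that of LCD mouse 1. mmu-mir-487b had no value in any library, mmu-mir-654 and mmu-mir-410 only in 1 PANDORA-seq library each, and 13 members only in traditional-seq. The maximum over all 18 libraries was under 1 RPM for 27 of the 44 (61.4%), against 764 of all 1150 miRNA precursors (66.4%). Of the 331 member values above 0, 179 rested on about 3 reads or fewer.

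**Figure D1:**
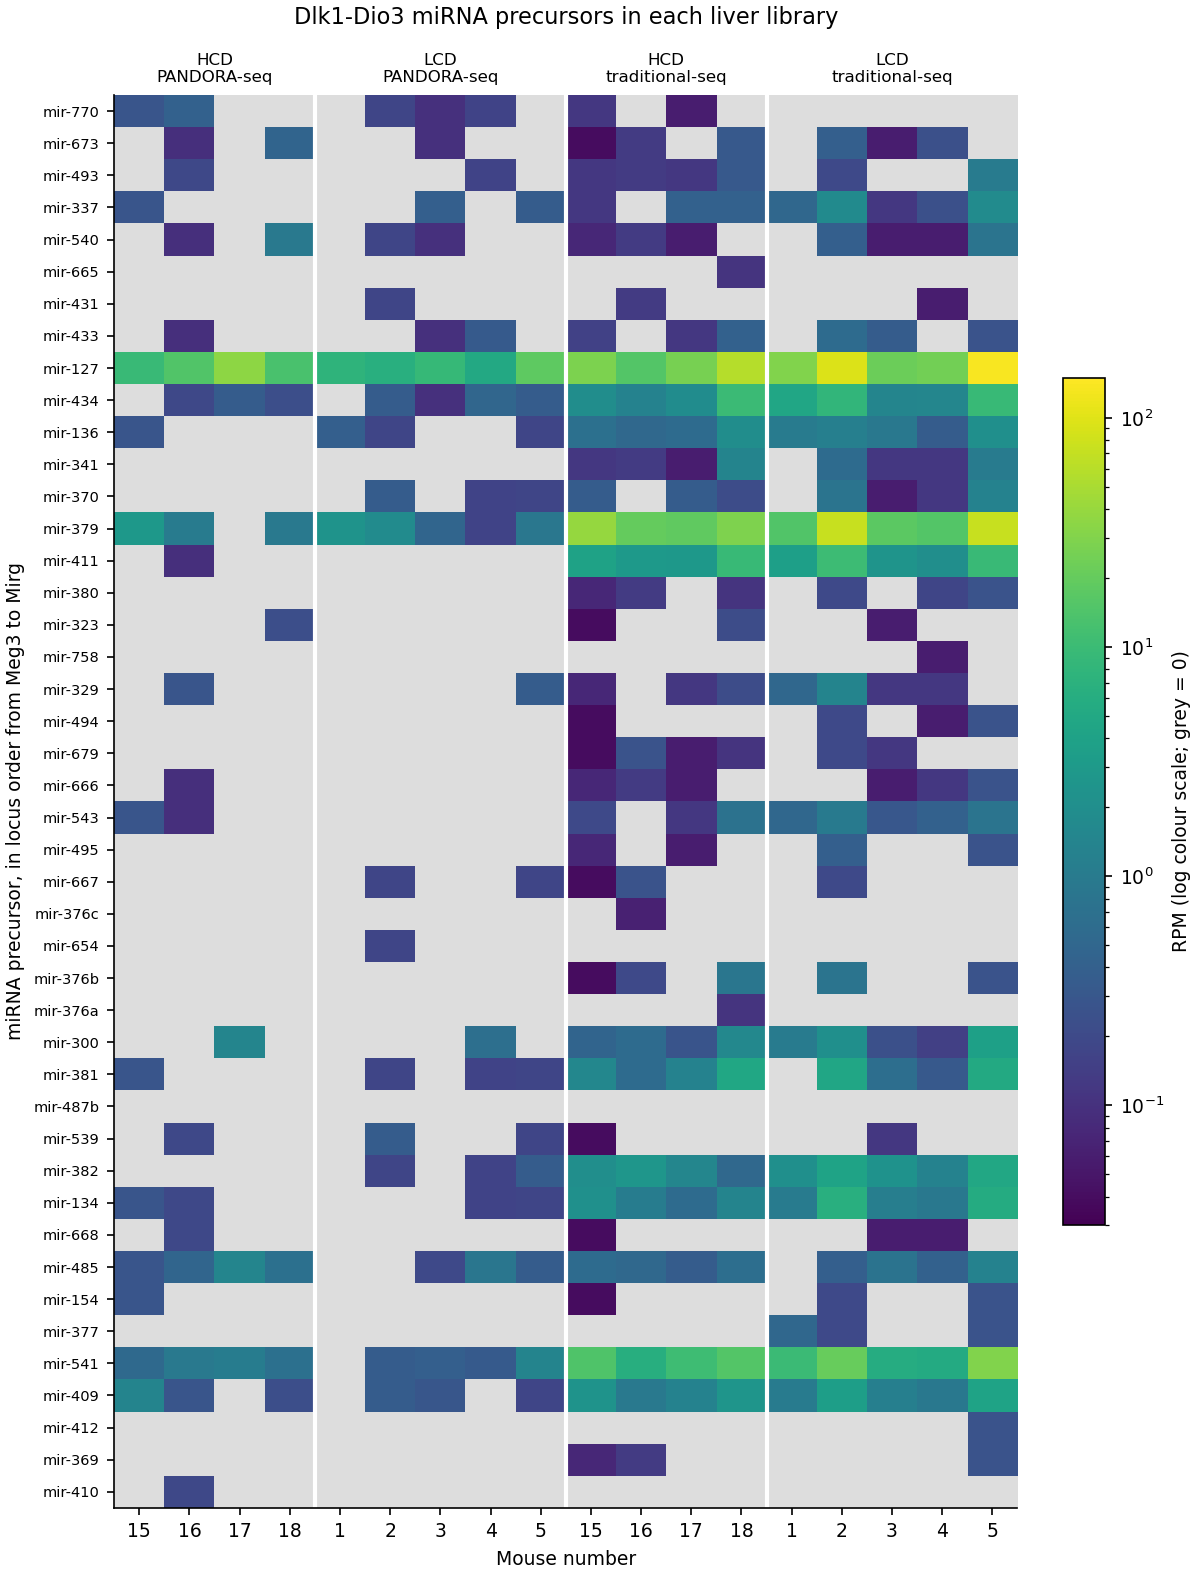
RPM of each of the 44 members (rows, in the order of the locus, with mir-666 where the list has it) in each of the 18 libraries (columns, by group and mouse number), on a logarithmic colour scale on which grey stands for 0. The rows of mir-127, mir-379 and mir-541 stand out in traditional-seq and that of mir-127 alone in PANDORA-seq, and most other rows hold few reads or none.

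By position along the locus, the reads came from 2 stretches. The 5 members opposite Rtl1 held 60% to 90% of the summed member RPM in PANDORA-seq libraries and 30.8% to 50.2% in traditional-seq libraries. The 31 members from mmu-mir-379 to mmu-mir-410, the long cluster in and before Mirg, held 10% to 36.7% in PANDORA-seq and 47.8% to 68.3% in traditional-seq. The 6 members on the Meg3 side held at most 8% in any PANDORA-seq library and at most 1.23% in any traditional-seq library. mmu-mir-341 and mmu-mir-370 in Rian held at most 3.12% and 1.15%. In traditional-seq, 3 members averaged 10 RPM or more, 8 averaged 1 to 10 RPM and 33 (75%) less than 1 RPM, against 76.2% of all miRNA precursors below that level.

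mmu-mir-127 was the most abundant member in both methods. It is encoded opposite Rtl1, whose transcript it cleaves. In PANDORA-seq it had 9.8, 15, 34.9 and 13.1 RPM in HCD mice 15 to 18, against 7.56, 6.5, 9, 5.2 and 18 RPM in LCD mice 1 to 5. In traditional-seq it had 27.7, 15.2, 25.8 and 57.7 RPM in the HCD mice, against 29.5, 97.1, 22.2, 24.8 and 137 RPM in the LCD mice. The diet groups overlapped in both methods, and LCD mice 2 and 5 stood far above the other 7 in traditional-seq. Among the 1150 miRNA precursors mmu-mir-127 ranked 66th by its mean in PANDORA-seq and 110th in traditional-seq.

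mmu-mir-379, the first precursor of the long cluster, was next. In traditional-seq it had 39.2, 19.9, 18.6 and 28.7 RPM in HCD mice, against 15, 72.3, 17.3, 15.3 and 73.4 RPM in LCD mice. In PANDORA-seq it had only 2.8, 1.05, 0 and 0.936 RPM in HCD mice, against 2.39, 1.8, 0.489, 0.168 and 0.89 RPM in LCD mice. Its level was above that of mmu-mir-127 in the traditional-seq libraries of HCD mice 15 and 16 and below it in the other 7, with a ratio of mmu-mir-379 to mmu-mir-127 of 1.41, 1.31, 0.72 and 0.496 in HCD mice and of 0.509, 0.744, 0.782, 0.615 and 0.534 in LCD mice. The ranges of that ratio overlapped between the diets.

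mmu-mir-541, in an intron of Mirg, was the third, with 14.3, 6.34, 10.6 and 15.3 RPM in HCD and 9.82, 20.7, 5.95, 5.43 and 30.3 RPM in LCD livers by traditional-seq. The other members with the highest means averaged between 1.14 and 5.26 RPM in traditional-seq, from mmu-mir-300 up to mmu-mir-411, with mmu-mir-434, mmu-mir-382, mmu-mir-134, mmu-mir-381 and mmu-mir-409 between them. Of these, mmu-mir-134 is known in neurons as a regulator of dendritic spines. Within these 7 the SD over mice reached about the size of the mean, as for mmu-mir-434 with 3.77 ± 4.15 RPM in HCD (SD, n = 4) and 5.05 ± 3.71 RPM in LCD (SD, n = 5), so neighbours in the order cannot be told apart.

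The levels of 3 pairs among the members are less certain, since their values fell on fractions of a read. Of the 331 member values above 0, 22 were not a whole number of reads within 0.02 of a read, and 21 of these ended on 0.5 of a read. mmu-mir-300 and mmu-mir-381 both did so in the same 5 traditional-seq libraries, mmu-mir-379 and mmu-mir-411 in the same 4, and mmu-mir-376b and mmu-mir-376c in the same library. These are the pairs with near-identical mature products printed above. The remaining such values were those of mmu-mir-770 in 1 PANDORA-seq library and of mmu-mir-411 in the traditional-seq library of HCD mouse 15, where it stood at 103.33 reads. The sources used here do not say how reads matching both members of a pair were assigned.

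In traditional-seq, the abundant members were highest in the same mice. Their summed level was 99.1, 54.4, 67.2 and 140 RPM in HCD mice 15 to 18, against 70.8, 241, 58.2, 55.2 and 297 RPM in LCD mice 1 to 5. LCD mouse 5 had the highest value of 7 of the 10 most abundant members, LCD mouse 2 that of 2 and HCD mouse 18 that of 1, mmu-mir-434. Mice 2 and 5 were the 2 highest for 8 of the 10. In PANDORA-seq, with far fewer reads of the members, they were the 2 highest for 1 of the 10 in RPM and for 4 of the 10 per miRNA read, and HCD mouse 15 had the highest RPM of 4. The mean of these 2 mice exceeded that of LCD mice 1, 3 and 4 by 2.41 times for mmu-mir-382, 4.59 times for mmu-mir-379, 4.6 times for mmu-mir-127 and 15.1 times for mmu-mir-381, against a median of 1.79 times over the 272 miRNA precursors with an LCD mean of at least 1 RPM. As mice 2 and 5 were picked for their levels, these ratios carry no test.

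The sum over the members, per miRNA read, was highest in the same LCD mice in both methods. Per 1000000 miRNA reads the members summed to 265, 238, 288 and 286 in HCD and 261, 686, 255, 420 and 1469 in LCD livers by PANDORA-seq. By traditional-seq they summed to 128, 95.5, 91.9 and 245 in HCD and 109, 403, 87.9, 83.8 and 474 in LCD livers. Mouse 5 was highest and mouse 2 the next in both methods, although with mir-122 left out of the denominator LCD mouse 4 passed mouse 2 in PANDORA-seq, with 951 against 811. HCD mouse 18, the third in traditional-seq, was at the level of the other HCD mice in PANDORA-seq. In PANDORA-seq, mice 2 and 5 also had the lowest miRNA share, 2.11% and 2.04% of the listed RPM, which raises their levels per miRNA read. In RPM, the PANDORA-seq sums were 16.8, 20.2, 39.2 and 17.6 in HCD, against 10.4, 11.5, 11.3, 9.05 and 23.3 in LCD mice 1 to 5. There mouse 2 lay below all HCD mice.

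Several lists of markers of other cells were also highest in mice with a high summed level. The 6 fibroblast and stellate markers (the mir-199 copies, mir-214, mir-143 and mir-145a), all present in every traditional-seq library, summed to 11763, 9286, 7007 and 7256 per 1000000 miRNA reads in HCD, against 8914, 20858, 10140, 10366 and 25244 in LCD livers. The 2 endothelial markers summed to 2983 to 5545 per 1000000 in HCD livers and to 10866 and 9211 in LCD mice 2 and 5, against 2952 to 5225 in the other LCD mice. mir-122 held 49.7%, 59.3%, 64.4% and 26.3% of miRNA reads in HCD and 49.7%, 30.2%, 58.3%, 57.4% and 36.6% in LCD livers. Mice 2, 5 and 18, the 3 with the highest summed level, were also the 3 with the least mir-122, while mouse 18 had fibroblast and stellate markers in the lower part of the range. Without mir-122 in the denominator, the sums of these 3 mice were 578, 748 and 332 per 1000000, against 197 to 258 in the other 6. The 5 hepatocyte markers, mir-122 among them, summed to 778004, 820605, 867615 and 794682 per 1000000 miRNA reads in HCD livers. In LCD livers they summed to 768141, 621346, 765102, 777524 and 631342. On the full list only mice 2 and 5 were thus low, while mouse 18 lay within the range of the other 6. The immune list summed to 34.7 to 280 per 1000000 in HCD and 81.7 to 513 in LCD livers, and the biliary list to 341, 275, 166 and 476 in HCD and 236, 558, 255, 287 and 773 in LCD livers. Both were thus highest in mice 2 and 5, and mouse 18 was the highest of the HCD mice. The muscle list summed to 5.73 to 17.1 per 1000000 in HCD and 14.8 to 120 in LCD livers, also with the highest values in mice 2 and 5, and the erythroid list to 10.6 to 154 in HCD and 49.5 to 120 in LCD livers. The neuron list, of which 8 of 10 precursors are in the table, summed to 30.4 to 206 per 1000000, with the highest value in mouse 18. All of these marker sums keep mir-122 in the denominator, so the low mir-122 of mice 2, 5 and 18 raises those of the lists without mir-122. Marker sums without mir-122 were not computed. The part of these cell types in the members' levels was not tested.

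**Figure D2:**
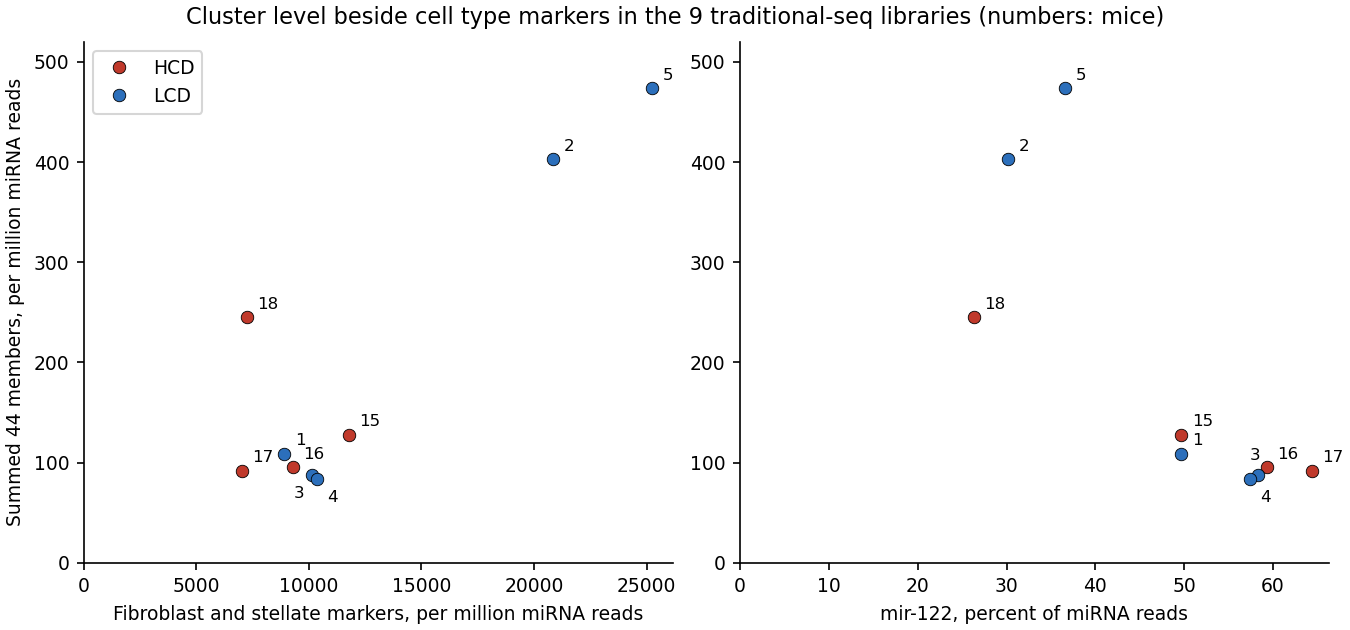
Summed level of the 44 members per 1000000 miRNA reads (vertical axis) in the 9 traditional-seq libraries, against the sum of 6 fibroblast and stellate markers per 1000000 miRNA reads (left) and the percent of miRNA reads held by mir-122 (right); numbers are mice and colours diets. LCD mice 2 and 5 lie at the top with the most marker reads, and HCD mouse 18 at 245 with the least mir-122.

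The diet comparison by traditional-seq asked which members respond to cholesterol feeding. None of the 11 members that passed a filter of 1 RPM in at least 4 libraries was called by limma at an adjusted p of 0.05, and 0 of 11 had an unadjusted p below it, while 34 of the 349 RNAs tested (9.74%) were called. The log2 fold change of HCD over LCD, on RPM + 1 after TMM scaling, was -0.07 ± 0.43 (SE) for mmu-mir-127 (95% interval -0.98 to 0.83, adjusted p = 0.963), 0.43 ± 0.4 for mmu-mir-379 (interval -0.43 to 1.28, adjusted p = 0.606) and 0.54 ± 0.36 for mmu-mir-541 (interval -0.23 to 1.31, adjusted p = 0.427). The largest estimate was 0.61 for mmu-mir-381 (adjusted p = 0.437) and the lowest -0.15 for mmu-mir-134 (adjusted p = 0.851). The median of the 11 was 0.19, beside 0.06 for all RNAs tested, and 8 of the 11 estimates were above 0. The intervals still allow changes of more than 1 log2 unit for mmu-mir-379, mmu-mir-381, mmu-mir-411 and mmu-mir-541. In PANDORA-seq 0 of the 44 members had HCD and LCD ranges in RPM that did not overlap, beside 59 of all 1234 RNAs in the table (4.78%), and in traditional-seq 0 of 44, beside 73 (5.92%).

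The direction of these estimates depended on the scaling. With RPM as deposited, which lowered the median of all RNAs tested to -0.53, 10 of the 11 estimates were below 0, that of mmu-mir-127 at -0.71 (adjusted p = 0.408) and that of mmu-mir-379 at -0.20 (adjusted p = 0.793), and mmu-mir-381 alone stayed above it at 0.18. They also moved when the 2 LCD mice with the highest levels were left out. Without mice 2 and 5, a choice made after seeing their levels, 9 members were tested and all 9 estimates were above 0, with 0.94 for mmu-mir-379, 0.90 for mmu-mir-541 and 1.12 for mmu-mir-381, beside a median of 0.05 over all RNAs in that fit. limma again called 0 of the 9, beside 28 of 341 RNAs (8.21%). Leaving out the 2 LCD mice in which these members were highest raises HCD over LCD by its construction, so these estimates are a description.

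**Figure D3:**
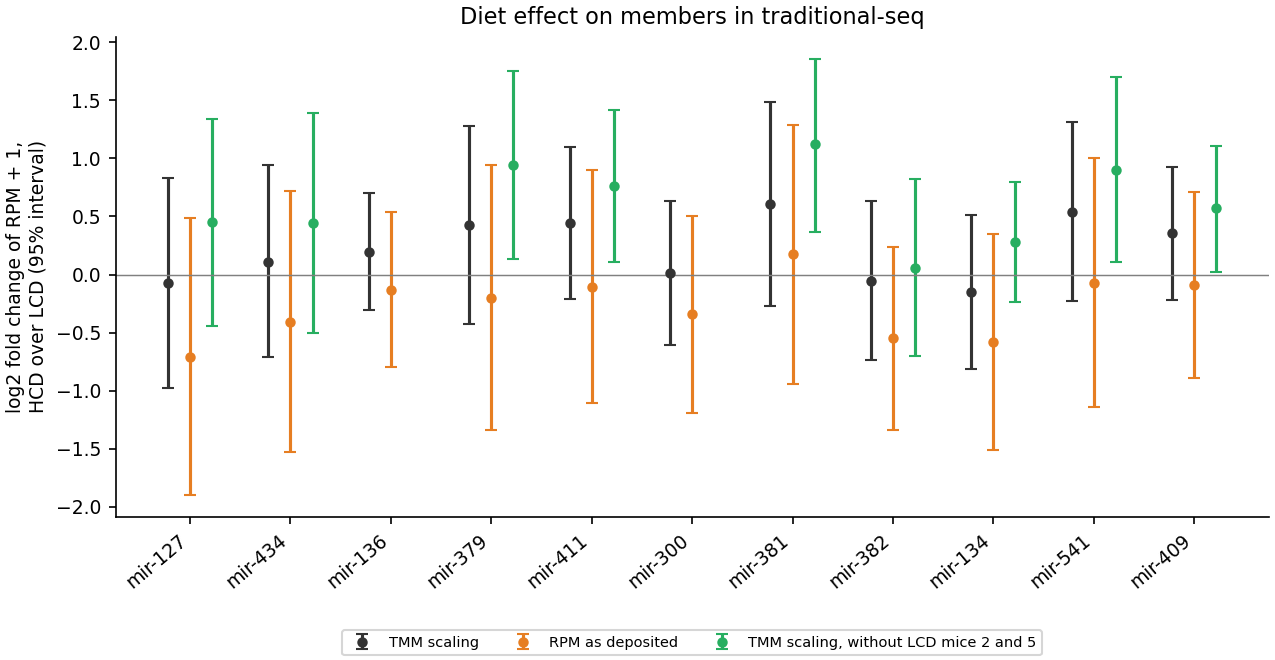
log2 fold change of HCD over LCD on RPM + 1 with its 95% interval for the 11 members tested in traditional-seq, with TMM scaling, with RPM as deposited, and with TMM scaling without LCD mice 2 and 5 (9 members tested). With TMM scaling and with RPM as deposited every interval includes 0, and the estimates are -0.07 with TMM and -0.71 with RPM for mir-127, and 0.43 with TMM and -0.2 with RPM for mir-379.

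In PANDORA-seq only mmu-mir-127 and mmu-mir-379 passed the filter, and the other 42 members could not be tested. limma called neither, with 0 at an unadjusted p below 0.05, while 58 of 244 RNAs (23.8%) were called. For mmu-mir-127 the log2 fold change of HCD over LCD was 0.69 ± 0.51 (SE, interval -0.38 to 1.76, adjusted p = 0.34), and without mouse 17, whose 34.9 RPM was the highest, it was 0.26. Scaled by miRNA reads it turned to -0.71 (adjusted p = 0.332). For mmu-mir-379 it was -0.14 ± 0.37 (adjusted p = 0.787).

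Whether the diet effect differed between the methods was tested over all 18 libraries. limma called 0 of the 10 members tested, with 0 at an unadjusted p below 0.05, against 20 of 351 RNAs (5.70%). The widest difference, PANDORA-seq minus traditional-seq, was that of mmu-mir-127 at 1.36 ± 0.69 log2 units (SE, interval -0.08 to 2.79, limma adjusted p = 0.251). With the mouse as a block, which pairs the libraries, its interval was 0.15 to 2.56 (limma adjusted p = 0.119). In that fit 0 of the 10 members were called, 1 (mmu-mir-127) had an unadjusted p under 0.05, and 55 of 351 RNAs (15.7%) were called. With RPM as deposited the difference was 1.57 (interval 0.02 to 3.12, limma adjusted p = 0.16). When miRNA reads set the scale it was -0.05 (limma adjusted p = 0.992).

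PANDORA-seq gave lower RPM than traditional-seq for the abundant members in both diets. In HCD livers limma called 5 of 6 members tested lower, beside 192 of 312 RNAs (61.5%), and in LCD livers 6 of 6, beside 229 of 325 RNAs (70.5%). These members passed the filter largely through their traditional-seq libraries, so their counts are a description. In each diet, 2 PANDORA-seq libraries of mmu-mir-379 and 1 of mmu-mir-541 reached 1 RPM, and none of mmu-mir-434, mmu-mir-411 and, in LCD, mmu-mir-382. As these members entered the fits through traditional-seq, their fitted values are given without a test. In HCD livers, the log2 fold change of PANDORA-seq over traditional-seq on RPM + 1 was -3.75 ± 0.54 for mmu-mir-379 and -2.74 ± 0.46 for mmu-mir-541 (SE). In LCD livers, it was -3.93 ± 0.49 for mmu-mir-379 and -3.14 ± 0.41 for mmu-mir-541. The fitted values were -2.37 in HCD and -2.51 in LCD for mmu-mir-411, -1.68 and -2.02 for mmu-mir-434, and -1.71 in LCD for mmu-mir-382. mmu-mir-409, which also passed the filter mostly in traditional-seq, stood at -0.96 in HCD, and its call was lost without the filter. When scaled by miRNA reads all of these differences shrank or turned.

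Among the members tested between the methods, mmu-mir-411 had the fewest reads in PANDORA-seq. It had 0, 0.0954, 0 and 0 RPM in HCD and 0 in each of the 5 LCD livers by PANDORA-seq, against 4.05, 2.97, 2.79 and 9.23 RPM in HCD and 3.62, 10.4, 2.43, 2.03 and 9.78 RPM in LCD livers by traditional-seq. In RPM the method groups did not overlap, as for 8 of the 10 most abundant members in LCD and 7 in HCD livers, mmu-mir-411 among them. Summed over mice, about 1 read stood against 258 in HCD and 0 against 172 in LCD. Since 0 is the value of a whole group, its fitted fold change depends on the pseudocount of 1 RPM.

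For mmu-mir-127 the difference between the methods was the smallest of the 6 estimates in HCD, while in LCD those of mmu-mir-382 and mmu-mir-434 were smaller, and differences between members were not tested. In LCD livers it was lower by PANDORA-seq, the log2 fold change being -2.34 ± 0.5 (SE, limma adjusted p = 0.000295), while in HCD livers the log2 fold change was -0.77 ± 0.6 (interval -1.98 to 0.45, adjusted p = 0.24). It was lower in 8 of 9 mice, and HCD mouse 17 was the exception, at 34.9 RPM by PANDORA-seq against 25.8 RPM by traditional-seq. Of the miRNA precursors tested, 190 of 229 were called lower and 5 higher in HCD, and 218 of 241 lower and 13 higher in LCD, with a median log2 fold change of -2.65 in HCD and -3.42 in LCD. Among the miRNAs, from the highest log2 fold change down, mmu-mir-127 ranked 35th of 229 in HCD and 70th of 241 in LCD, and mmu-mir-379 ranked 165th and 140th.

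Relative to miRNA reads the direction turned for mmu-mir-127. This scaling moved the median over all RNAs tested to 0.35 in HCD and 0.37 in LCD, where RPM as deposited gave -1.84 and -2.63. mmu-mir-127 had 155, 177, 257 and 214 per 1000000 miRNA reads in HCD and 191, 386, 204, 241 and 1133 in LCD livers by PANDORA-seq, against 35.8, 26.7, 35.3 and 101 in HCD and 45.3, 163, 33.5, 37.7 and 219 in LCD livers by traditional-seq. It was higher in PANDORA-seq in 9 of 9 mice, by 2.12 to 7.28 times, and the method groups did not overlap in HCD livers. On this scale its log2 fold change was 2.08 ± 0.71 in HCD (SE, limma adjusted p = 0.0155) and 2.05 ± 0.58 in LCD (adjusted p = 0.0045), while 38.5% and 41.5% of all RNAs tested were called higher. mmu-mir-411, the 1 member called lower in each diet where 25.6% of RNAs in HCD and 17.5% in LCD were, had entered the fit through traditional-seq alone. Its value was lower in PANDORA-seq in 9 of 9 mice on this scale as well. In 7 of the 9, however, the traditional-seq value of the mouse lay within the worth of 3 reads in its own PANDORA-seq library, so that a difference was not detectable at this depth. The other 2 were HCD mouse 18, where a PANDORA-seq value of 0 allows up to 11.4 per 1000000 miRNA reads against 16.1 by traditional-seq, and HCD mouse 16, with 1 read worth 1.13 (3 reads are worth 3.38) against 5.22. The other 4 members tested in each diet were not called, and mmu-mir-379 stood at -1.42 ± 0.69 in HCD and -0.36 ± 0.6 in LCD (SE). With the mouse as a block, which pairs the libraries of the same RNA, it stood at -1.42 ± 0.51 in HCD and -0.36 ± 0.41 in LCD. As mmu-mir-379 passed the filter largely through traditional-seq, these values are given without a test.

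**Figure D4:**
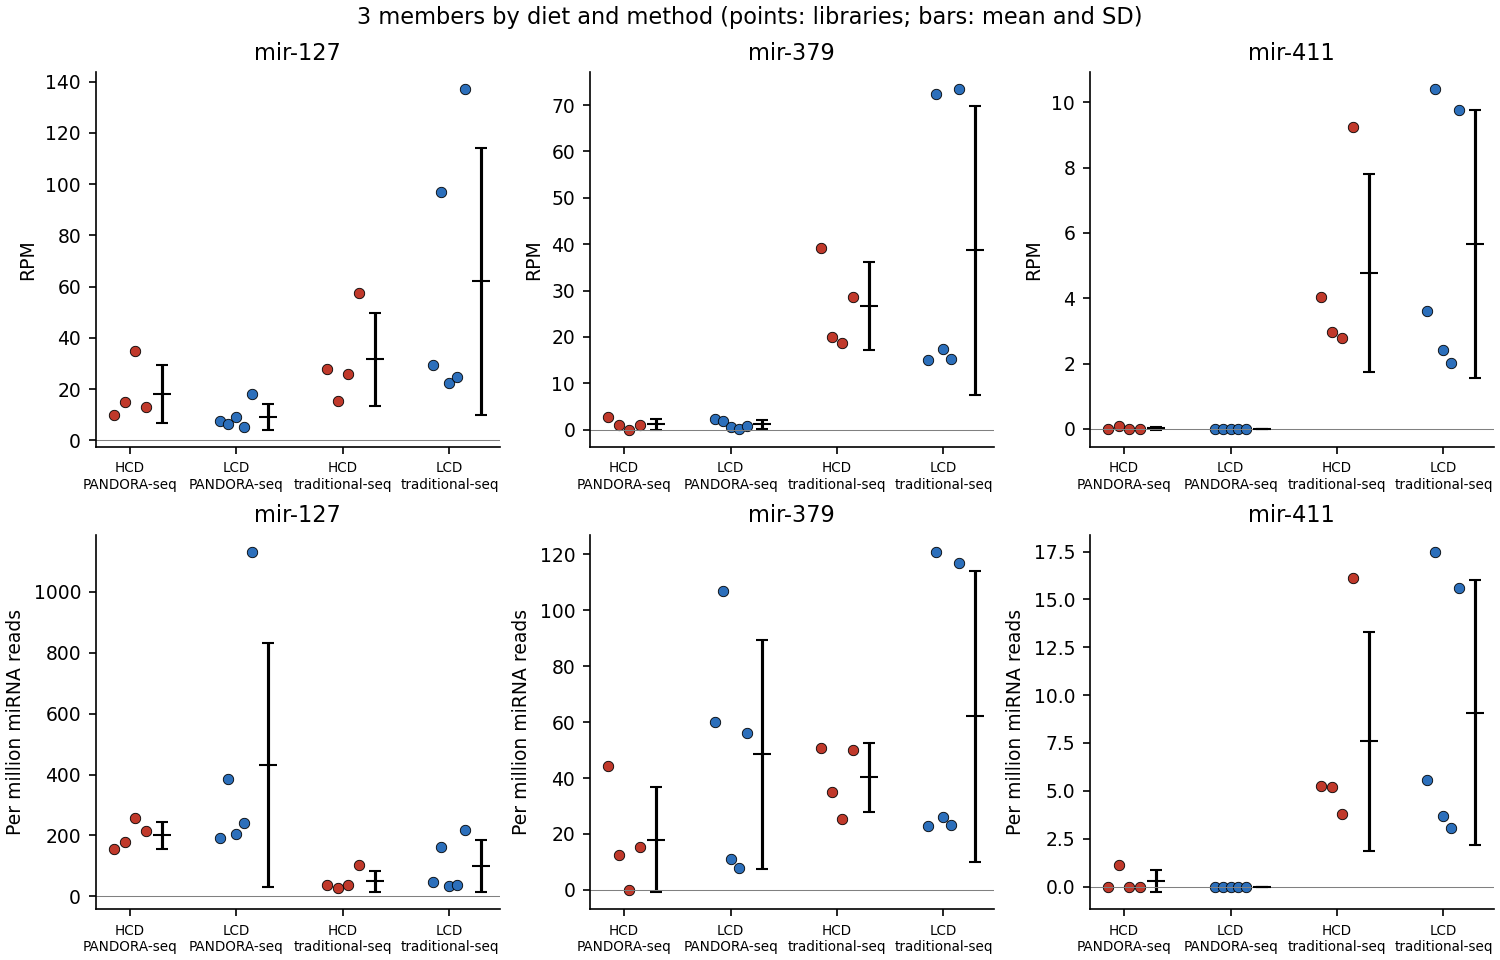
Levels of mir-127, mir-379 and mir-411 in the 4 groups, in RPM (top) and per 1000000 miRNA reads (bottom); points are libraries, red for HCD and blue for LCD, and bars the mean and SD. In PANDORA-seq, mir-127 is the lower one in RPM for 8 of 9 mice and the higher one per miRNA read for all 9, while mir-411 has a value above 0 in 1 of the 9 PANDORA-seq libraries.

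**Figure D5:**
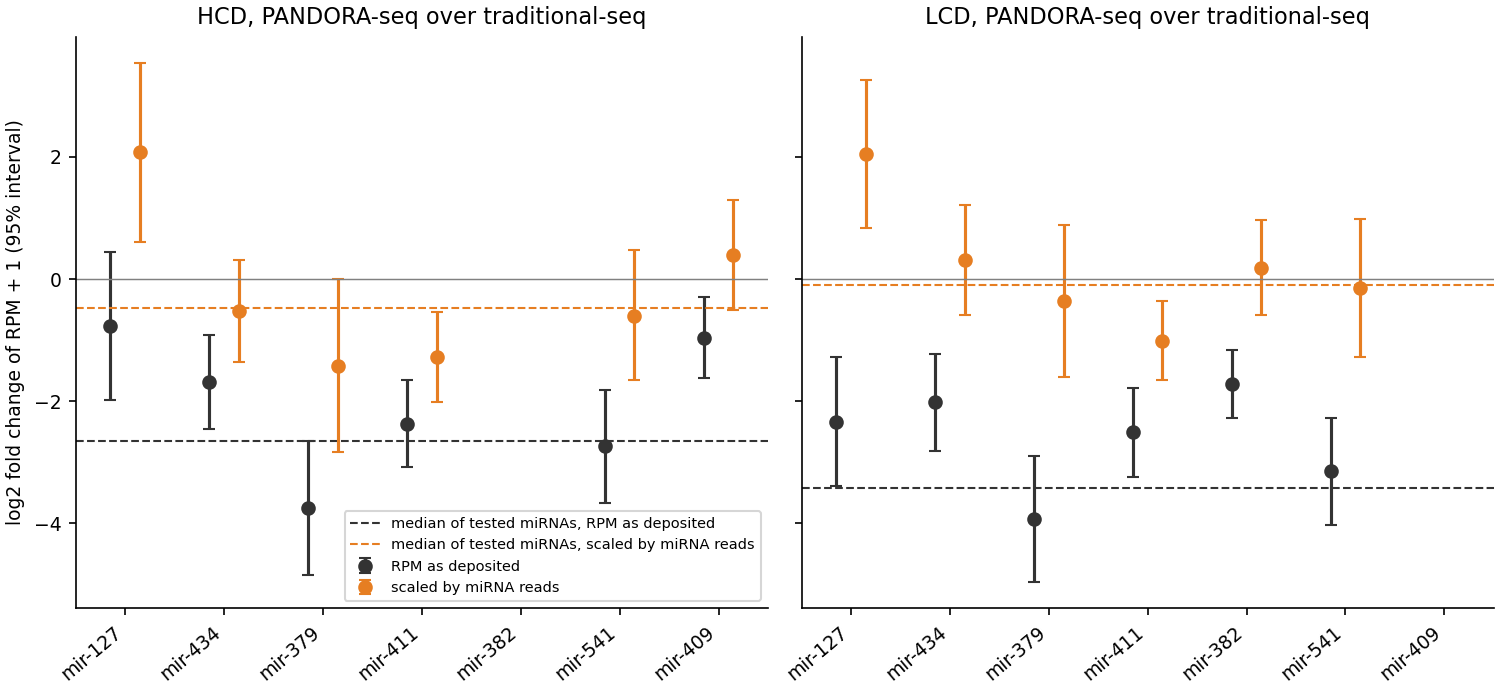
log2 fold change of PANDORA-seq over traditional-seq on RPM + 1 with its 95% interval in HCD (left) and LCD (right) livers for the members tested, with RPM as deposited (black) and scaled by miRNA reads (orange), and the median over all tested miRNAs as dashed lines. mir-127 lies above the median line on both scales in both diets, at 2.08 in HCD and 2.05 in LCD when scaled by miRNA reads.

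Ratios between members within a library do not depend on any scaling, and they differed between the methods. The ratio of mmu-mir-379 to mmu-mir-127 was 0 to 0.316 in the 9 PANDORA-seq libraries and 0.496 to 1.41 in the 9 traditional-seq libraries. That of mmu-mir-541 to mmu-mir-127 was 0 to 0.0792 in PANDORA-seq and 0.213 to 0.516 in traditional-seq. Both ratios were lower in PANDORA-seq in 9 of 9 mice, with no overlap between the methods. In the same way mmu-mir-127 held 56.2% to 89.1% of all member RPM in PANDORA-seq and 27.9% to 46.3% in traditional-seq. The PANDORA-seq ratios rest on few reads, 0 to 11 of mmu-mir-379 and 0 to 10 of mmu-mir-541 beside 19 to 157 of mmu-mir-127 in a library, against 29 to 1000, 19 to 365 and 57 to 707 in traditional-seq. These ratios were chosen after their values were seen and carry no test.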

How the data were processed

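Liver small RNA of 9 mice was sequenced by PANDORA-seq and traditional-seq. The authors assigned reads with SPORTS1.1 (version 1.1.0, 1 mismatch allowed) on mm10 and deposited 1 table of RPM values, reads per 1000000 reads of a library, with 1 value for each RNA and library. The authors compared diets with edgeR, by TMM scaling and a likelihood ratio test. As the deposited values are RPM, and 67.6% to 81.5% of those below 3 RPM came out as whole reads (within 0.02), counts were not recovered and limma (version 3.58.1, R 4.3.3, mean-variance trend) was used on log2(RPM + 1). Such fold changes understate those of rare RNAs.

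All RNAs that reached 1 RPM in 4 or more libraries (5 for the methods in LCD and for the difference of diet effects) were fitted, with Benjamini-Hochberg adjustment over them and a threshold of 0.05. Diets were compared after TMM scaling (own code, trimming 30% by fold and 5% by level), methods on RPM as deposited. Alternatives were other scalings, pseudocounts of 0.5 and 0.1 RPM, no filter, a filter of 5 RPM, all 18 libraries in one fit, the mouse as a block and leaving out each mouse. The fits were also run on simulated data, with TMM scaling only and no gap in miRNA share between the methods. That run does not cover the comparison of methods on RPM as deposited. Mice are separate animals, so p-values of the diet comparisons within a method measure the spread between mice. The fits between methods and for the difference of diet effects took both libraries of a mouse as independent, unless the mouse was a block. By the study's methods, both libraries of a mouse come from the same RNA. Their deviations from group means correlated with r of 0.109 to 0.483 over 308 RNAs, above 0.1 in 9 of 9 mice, and the own mouse matched best in 5.

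Members named with values are the 10 with the highest mean in traditional-seq and any called by limma. The members and lists were chosen with earlier results of these data known. Sequences and positions come from RefSeq and GENCODE M21 on GRCm38, the assembly of mm10. Python 3.11.15 with numpy 2.4.6, pandas 2.3.3 and matplotlib 3.10.9 was used for the descriptions and plots.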

Additional observations from a re-analysis of the deposited data

Results flagged for a closer look

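Samples that lay far from the other libraries of their group were sought for the 10 most abundant members and for the summed level in RPM and per miRNA read. This made 48 combinations of measure and group. There were 8 such samples. The share that chance would mark is not known for such low and skewed levels, as a group with 1 value above 0 is always marked. In HCD traditional-seq, mmu-mir-434 had 9.98 RPM in mouse 18, against 1.32 to 1.92 RPM in the other 3. In HCD PANDORA-seq the summed level of the members was 39.2 RPM in mouse 17, against 16.8 to 20.2 RPM in the others, and in LCD PANDORA-seq it was 23.3 RPM in mouse 5, against 9.05 to 11.5 RPM. In LCD PANDORA-seq, mmu-mir-541 had 1.42 RPM in mouse 5, against 0 to 0.391 RPM. In another 4 cases 1 library had reads and the others of its PANDORA-seq group had none: mmu-mir-300 with 1.43 RPM in HCD mouse 17 and 0.67 RPM in LCD mouse 4, about 4 reads each, and mmu-mir-411 with 0.0954 RPM in HCD mouse 16 and mmu-mir-381 with 0.28 RPM in HCD mouse 15, about 1 read each.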

How the results depend on the processing

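Of 78 alternatives to the 5 counts of called members, 71 stayed within 1.5 times the count given and 7 did not. All of the alternatives to the 3 counts that involve diet left 0 members called. For the methods in LCD, 6 members called became 10 without a filter, 3 with a filter of 5 RPM, and 2 when scaled by miRNA reads with or without the mouse as a block. In HCD, 5 became 2 with a filter of 5 RPM, 2 when scaled by miRNA reads, and 3 with that scaling and the mouse as a block. The block added mmu-mir-379, which had passed the filter largely through traditional-seq. Leaving out 1 mouse gave 6 to 8 called members in LCD and 4 to 6 in HCD. Pairing the libraries by a replicate block for the mouse left 6 members called in LCD, 5 in HCD and 0 for the difference of the diet effects. Scaling by miRNA reads, a denominator that differs between the methods, reversed some log2 fold changes between methods, with and without the block. These were mmu-mir-127 (2.05 in LCD, 2.08 in HCD), mmu-mir-434 (0.31 in LCD), mmu-mir-382 (0.18 in LCD) and mmu-mir-409 (0.40 in HCD). On the same scale mmu-mir-379, mmu-mir-411 and mmu-mir-541 stayed below 0 in both diets. With TMM scaling mmu-mir-127 stood at 0.05 in HCD (limma adjusted p = 0.941) and at -1.01 in LCD (adjusted p = 0.0313), and mmu-mir-379 at -3.22 in HCD and -2.95 in LCD. Single-member estimates changed sign without a call on either side in 61 of 505 alternatives. The block with miRNA scaling, and the fits without LCD mice 2 and 5, were chosen after seeing the data, and without these mice mmu-mir-127 stood at -1.70 between methods in LCD. DESeq2 was not run, as the table holds no counts. Depth limits the rest: 42 members in PANDORA-seq and 33 in traditional-seq were below the filter for the diet comparison.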

Other observations

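Of 17 other precursor names of the locus that are no members, 13 have a row in the table, 11 had a value above 0 in some library and 4 reached 1 RPM. The following were picked after their values were seen. mmu-mir-3070-1 had reads by PANDORA-seq and none by traditional-seq in the LCD livers, while in HCD livers both methods gave about 2 reads or fewer in all. By PANDORA-seq it had 0.14, 0.0954, 0 and 0 RPM in HCD and 0.199, 0.722, 0.147, 0.335 and 1.78 RPM in LCD livers, against 0, 0.198, 0.03 and 0 RPM in HCD and 0 RPM in all 5 LCD livers by traditional-seq. mmu-mir-3070-2 had the same values in every PANDORA-seq library. Some of them lay below the worth of 1 read, with 0.14 against 0.28 RPM in HCD mouse 15 and 0.199 against 0.398 RPM in LCD mouse 1. The sources used here do not say how reads matching both precursors were assigned, so their values are not taken as separate observations. In LCD livers, mouse 5 and mouse 2 again held the highest values. mmu-mir-1247, at the Dio3 end, was the one other precursor with reads in all 9 traditional-seq libraries, with 1.33, 0.793, 0.839 and 2.36 RPM in HCD and 1.55, 0.394, 1.44, 1.55 and 0.261 RPM in LCD livers. There, LCD mice 2 and 5 had the lowest values, in contrast to the members. Both values lay below the worth of 3 reads in their libraries, 0.591 and 0.782 RPM. mmu-mir-299a, which also reached 1 RPM, was by traditional-seq highest in these mice, with 0.886 RPM in mouse 2 and 1.04 RPM in mouse 5. mmu-mir-485, a member in an exon of Mirg, had overlapping RPM by both methods, with 0.28, 0.477, 1.43 and 0.702 RPM in HCD and 0, 0, 0.196, 0.838 and 0.356 RPM in LCD livers by PANDORA-seq, against 0.589, 0.529, 0.359 and 0.644 RPM in HCD and 0, 0.394, 0.781, 0.417 and 1.3 RPM in LCD livers by traditional-seq. Per 1000000 miRNA reads its HCD values did not overlap, at 4.42 to 11.4 by PANDORA-seq against 0.491 to 1.13 by traditional-seq, where the PANDORA-seq values rest on 1 to 5 reads a library. None of these precursors passed the filter for the comparison of methods.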
